A study of Mus musculus musculus x M. m. domesticus and Mus musculus musculus x Mus musculus castaneus and Mus musculus domesticus with 42 samples.

Results

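Transcript levels of testis were set against those of brain in the same 14 males, over 14 testis and 14 brain arrays of 42 in all. Each testis array was paired with the brain array that carried the same genotype and replicate number, so that every male gave its own difference. The remaining 14 arrays, of liver, served as the background for transcripts that testis and brain had in common. A transcript counted as one of testis or of brain when the average over the 7 genotypes passed the test and all 14 males differed in that direction.

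The study used 1-colour Affymetrix 430 2.0 arrays on whole brain, liver and testis of house mice, to ask how expression is inherited in hybrids between subspecies. The males came from wild-derived inbred lines and their F1 hybrids, with 2 males in each genotype. Domesticus males (Mus musculus domesticus) were 45 days old. Musculus (M. m. musculus) and castaneus (M. m. castaneus) males were 47 days old. The F1 hybrids, written with the mother first, were 53 days old in musculus x domesticus, 50 in domesticus x musculus, 53 in musculus x castaneus and 54 in castaneus x musculus. The labels record no treatment and no engineered allele, and give each array to 1 male. Each genotype was sampled at 1 age, so differences between genotypes cannot be told apart from differences between ages. Testis and brain of a male share its genotype and its age.

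The adult testis consists mostly of germ cells at successive stages. Spermatogonia divide, spermatocytes pass through meiosis, and spermatids build the acrosome and the tail and replace their histones with transition proteins and then protamines. Sertoli cells support them inside the tubules and Leydig cells between the tubules make steroids. The X chromosome is silenced in spermatocytes during meiosis and stays largely repressed in spermatids, and many X-linked and other housekeeping genes have a related autosomal gene that is used in the male germ line. The brain mixes neurons, which release transmitter at synapses, with astrocytes, myelin-forming oligodendrocytes and microglia. Testis and brain are known for the large number of genes they express and for many transcript forms that differ from those of other tissues.

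The tissue labels matched the markers of germ cells and neurons. The protamine Prm2 had a median signal of 18481.5 in testis and 76 in brain, and the synaptic protein Snap25 one of 12 in testis and 17029.5 in brain. The epididymis genes Lcn5 and Adam7 and the pituitary hormone genes Prl and Cga stayed at or under medians of 76 in both tissues. Lcn2, listed with the epididymis, had medians of 832 in testis and 15.5 in brain, and the pituitary hormone genes Gh (147.5 and 119) and Lhb (368 and 112, called in testis at 1.33) were brighter than Prl and Cga. The liver transcript Alb had medians of 145 in testis and 135 in brain against 22281 in liver, with a highest testis value of 1084. Amh, a Sertoli cell product, was dim in testis, with a median of 51.5. Of the other Sertoli markers, Rhox5 was called in testis (3.73). Sox9 (medians of 276.5 in testis and 288.5 in brain) and Fshr (265.5 and 128.5) were not called. Median signals of whole arrays lay between 95 and 158 in testis and between 130 and 183 in brain. Replicate arrays correlated at 0.976 to 0.980 in testis and at 0.967 to 0.982 in brain. The 2 testis arrays of the musculus x castaneus F1 stood apart: their mean correlations with the other testis arrays were 0.948 and 0.944, against 0.955 to 0.967 for the other 12. Some counts and dependence calls are also given without that genotype. Counts on lists include it unless stated otherwise, and several differed without it. Leydig cell genes called in testis, for example, numbered 10 with it and 9 without. All values come from bulk tissue, in which fewer cells of a type and less RNA per cell cannot be told apart.

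Differences between the tissues reached a large part of the arrays. Differences are testis minus brain on the log2(signal + 31) scale, averaged over 7 genotypes, and understate the change of dim transcripts. Of 27022 probe sets tested, 5114 (18.9%) were higher in testis and 7109 (26.3%) higher in brain by more than 1 log2 unit (limma's treat test against a change of 1, Benjamini-Hochberg adjusted p under 0.05), together 12223 (45.2%). All 14 males differed by more than 1 in the same direction for 3761 probe sets of testis (13.9%), which covered 2841 named genes, and for 4658 of brain (17.2%), which covered 3018. At the limit of this rule the smallest difference of any male was 1.00 just inside and 1 just outside. Against a change of 0, 24186 probe sets (89.5%) differed by limma's eBayes test, and 6244 (23.1%) were higher in testis and 8244 (30.5%) in brain in each genotype tested alone. Without the musculus x castaneus F1, 4058 of the same probe sets held in testis and 5648 in brain in the remaining 12 males. A further 1353 probe sets of testis and 2451 of brain passed the test on average but not in every male.

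The testis transcripts were the more extreme group. Those that held in all males had a median signal of 2067 in testis, 119 in brain and 132 in liver, and a median difference of 3.14. The brain transcripts that held had medians of 1306.5 in brain, 131 in testis and 191 in liver, and a median difference of -2.71. Differences above 4 log2 units in every male were found for 748 testis and 425 brain probe sets. These medians describe groups that the rule itself selected. The deposited scaling sets the direction of small differences: the median over all tested probe sets was -0.26 as deposited, -0.01 when arrays were scaled to a shared median and -0.07 after quantile normalization. Testis made up 41.8% of the calls as deposited, 50.6% with shared medians and 47.6% with quantiles. Brain thus had more calls than testis as deposited, while testis had more with shared medians, at 5986 against 5852 calls and 4302 against 3934 that held.

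**Figure D1:**
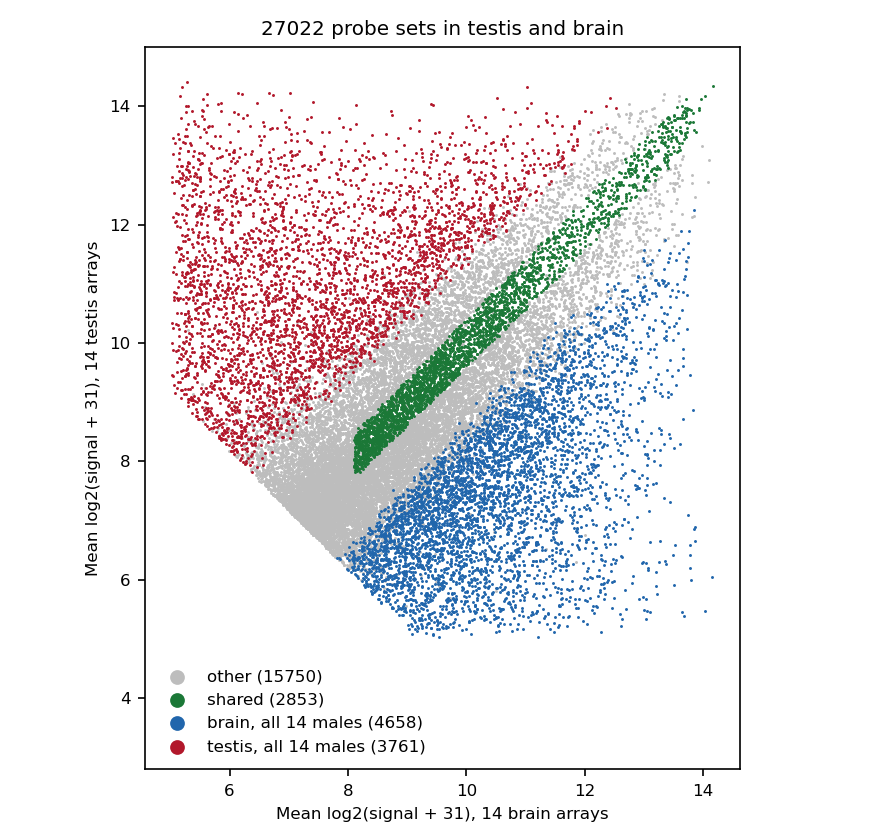
Mean log2(signal + 31) of 27022 probe sets over 14 brain arrays (horizontal) and 14 testis arrays (vertical). Red points are the 3761 testis and blue points the 4658 brain probe sets that held in all 14 males, green points the 2853 shared ones, and grey points the remaining probe sets; the red group reaches the left edge, where brain signal is lowest, up to the brightest testis values.

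Transcripts of late germ cells headed the testis side. Tnp2, a transition protein that replaces histones in spermatids, had signals from 11680 to 22362 (median 15967) in testis and from 3 to 19 (median 6.5) in brain. The difference was 8.73 ± 0.08 (SE; 14 of 14 males, limma adjusted p = 1.75e-18). The 2 ranges did not come near each other, and its partner Tnp1 gave the same picture, from 14252 to 28261 (median 18048) in testis and 3 to 46 (median 21) in brain, with a difference of 8.58. Hils1, a histone H1-like protein of spermatid nuclei, lay between 7956 and 16296 (median 13241.5) in testis and between 4 and 11 in brain. Hmgb4, a high-mobility-group protein of the germ line, had a lowest testis value of 9368 and a highest brain value of 20.

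Ldhc is the lactate dehydrogenase subunit of sperm and their precursors. It gave the largest difference of any named gene, 9.13 ± 0.07 (limma adjusted p = 6.80e-19), with signals from 17169 to 27408 (median 20930.5) in testis and 2 to 33 (median 4) in brain. Fabp9, a lipid-binding protein of the sperm head, ranged from 13564 to 23824 in testis and from 4 to 45 in brain, a difference of 8.59. Smcp, a protein of the capsule around sperm mitochondria, ranged from 10157 to 21940 in testis and from 2 to 35 in brain, a difference of 8.56. For all of these the lowest testis array lay far above the highest brain array.

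Hspb9, a small heat shock protein known as a testis antigen, ranged from 11213 to 18473 in testis and from 1 to 27 in brain, with a difference of 8.63. Crisp2, a cysteine-rich secretory protein carried by the acrosome and tail, ranged from 10300 to 18190 in testis and from 2 to 34 in brain. Spata4 differed by 8.23, Pdcl2 by 8.39, Tsga8 by 8.22, Clec2m by 8.39 and Cmtm2b by 8.02. The transcript known only as 1700019M22Rik differed by 8.41. These 15 genes were those with the largest smallest difference over the males, which was at least 7.62 in each. Of these 15, Fabp9 alone was called for dependence on genotype (limma F test, adjusted p = 3.58e-02), and without the musculus x castaneus F1 that call was lost (limma adjusted p = 0.080). The range of its genotype means was 0.93 both with and without that F1. Genes without the call did not all vary less: Tnp1 had a range of 1.27, and Ldhc one of 1.14 (limma F test, adjusted p = 0.051).

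**Figure D2:**
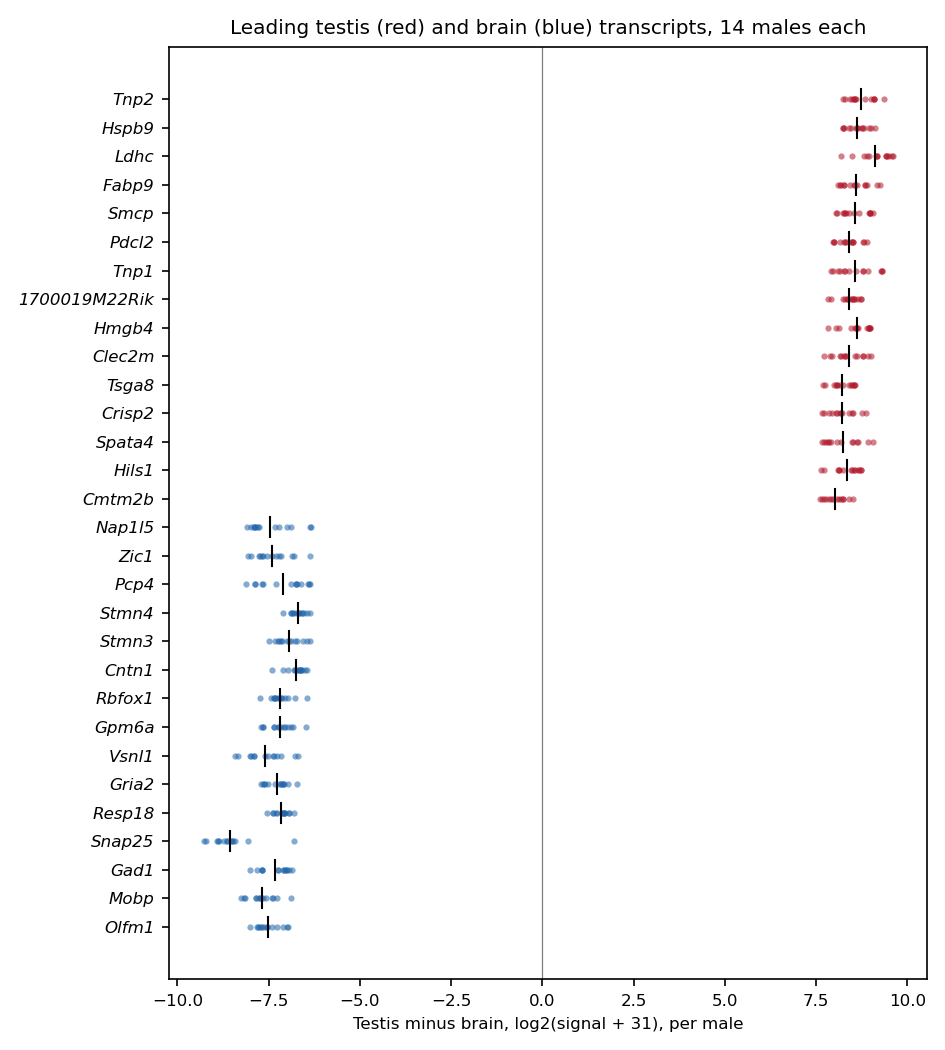
Testis minus brain on the log2(signal + 31) scale for the 15 testis (red) and 15 brain (blue) genes with the largest smallest difference; each point is 1 of 14 males and each bar the mean. Every testis gene lies at 7.62 or above and every brain gene at -6.33 or below in all males.

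Counts on lists are over tested genes only, since a gene bright in 1 tissue passed the filter on dim probe sets more readily than one dim in both. The lists were chosen with earlier results of these data known, so their counts describe them and test nothing. Over all tested probe sets 18.9% were called in testis and 13.9% held, 26.3% were called in brain and 17.2% held, and 10.6% were shared. Every tested gene of the sperm tail, the acrosome and sperm chromatin was higher in testis. Of 31 listed genes of the sperm tail and axoneme, 28 passed the filter, and all 28 were called and held in every male, with a median difference of 5.66 against -0.26 over all probe sets. Odf1, a component of the outer dense fibres, ranged from 9252 to 20258 in testis and from 4 to 77 in brain. Akap4, the main protein of the fibrous sheath, ranged from 6168 to 13948 in testis and from 19 to 111 in brain. The axonemal dynein heavy chain Dnah8 differed by 7.12, while Hydin, a protein of the central pair of microtubules that cilia of the brain ventricles also need, had the smallest difference of the list, 2.88, and brain signals up to 251.

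All 20 tested genes of the acrosome and egg binding, of 21 listed, held in testis with a median difference of 5.96. Spesp1, a protein of the equatorial segment, ranged from 5860 to 9943 (median 8413.5) in testis and from 2 to 6 (median 3) in brain. Izumo1, the sperm protein that binds its receptor on the egg, ranged from 1387 to 4471 in testis and from 11 to 75 in brain. The smallest difference of this list was that of the protease Pcsk4, 1.79, where brain values from 149 to 286 still lay below testis values from 569 to 1109. Of 15 listed genes of sperm chromatin packaging, 10 were tested and all 10 held, with a median of 6.51. Prm2 differed by 7.46 and the chromatin remodeller Smarca5, which many tissues use, by 1.48.

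Of 23 listed sperm channels and kinases, 19 were tested. Of these, 15 held in testis, among them Catsperd (5.32), a subunit of the sperm calcium channel, the serine kinases Tssk2 (7.84) and Tssk6 (7.51), and Plcz1 (7.18), the phospholipase that activates the egg. Camk4, a calcium-dependent kinase that spermatids and neurons are both known to use, went the other way: it ranged from 63 to 192 in testis and from 3204 to 5651 in brain, a difference of -4.86 ± 0.06 (limma adjusted p = 1.21e-16). Prkaca, Pla2g4c and Atp2b4 were not called.

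Genes of meiosis were also testis transcripts. Of 25 listed genes 23 were tested, 22 were called in testis and 19 held in every male, with a median difference of 4.89. Over all probe sets 18.9% were called in testis and 13.9% held. Syce1, a component of the central element that joins paired chromosomes, ranged from 6831 to 11118 (median 9288) in testis and from 38 to 152 (median 97) in brain. Hormad1, which marks unpaired chromosome axes, ranged from 1332 to 4341 in testis and from 1 to 19 in brain. Dmc1, the recombinase of meiosis, differed by only 1.34 and not in every male by more than 1, and the mismatch repair protein Mlh3 was not called (0.91). Among 18 tested genes of germ cell translation and piRNA, of 21 listed, 15 were called in testis. Mael, which silences transposons, had the largest difference of that list, 8.41, and Cpeb1, a regulator of polyadenylation that neurons use at synapses, was higher in brain (-1.51).

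Cell cycle genes were mostly higher in testis. Of 22 tested cell cycle genes, of 23 listed, 18 were called in testis and 2 in brain, against 18.9% and 26.3% of all probe sets. The list median was 3.09. The kinase Bub1, which monitors chromosome attachment, ranged from 2651 to 4445 in testis and from 4 to 17 in brain. The proliferation marker Mki67 ranged from 456 to 870 in testis and from 13 to 84 in brain. The genes called in brain were Ccnd1, a cyclin of early cell cycle entry (-1.15), and the cell cycle inhibitor Cdkn1b (-1.71).

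Of 18 listed markers of spermatogonia 13 were tested, 5 were called in testis, 4 in brain and 4 in neither, where 18.9% and 26.3% of all probe sets were called in testis and in brain. The germ cell helicase Ddx4 differed by 7.15, the RNA-binding protein Dazl by 5.01 and Dmrtb1 by 6.03, and all of these held in every male. Gfra1, the receptor for the growth factor GDNF, ranged from 71 to 170 in testis and from 645 to 881 in brain, a difference of -2.42. Uchl1, a ubiquitin hydrolase known from both spermatogonia and neurons, ranged from 998 to 2030 in testis and from 5760 to 8771 in brain. Both are used as spermatogonial markers within the testis, yet neither testis range reached that of brain. Kit and Zbtb16 were also called in brain, at -1.29 and -1.39.

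Of the somatic cells of the testis, Sertoli cell genes were called in testis for 11 of 16 tested, of 22 listed, and in brain for none. Over all probe sets the shares were 18.9% in testis and 26.3% in brain. Defb19, a defensin of Sertoli cells, ranged from 6346 to 11846 in testis and from 2 to 25 in brain, and Cst9 differed by 7.62. Clu, a secreted chaperone that astrocytes also make, lay between 9652 and 14755 in testis and between 9753 and 13228 in brain, and was shared. Cldn11, which seals both the Sertoli cell barrier and the myelin sheath, differed by -0.78 and was not called. Of 12 tested Leydig cell genes, of 18 listed, 10 were called in testis, with the steroid enzyme Cyp17a1 at 6.50. The prostaglandin synthase Ptgds (-2.15) and angiotensinogen, Agt (-2.90), which brain glia also make, were called in brain.

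Brain transcripts were led by genes of neurons and myelin. Snap25, a membrane protein that drives fusion of synaptic vesicles, had signals from 13223 to 19944 (median 17029.5) in brain and from 1 to 115 (median 12) in testis. The difference was -8.57 ± 0.10 (SE; 14 of 14 males, limma adjusted p = 3.11e-17), the largest among the named brain genes. Mobp, a protein of compact myelin, ranged from 6152 to 12215 (median 8409) in brain and from 5 to 27 (median 9) in testis, a difference of -7.69. Gad1, which makes the transmitter GABA, ranged from 7720 to 10847 in brain and from 11 to 50 in testis. No testis array came near a brain array for any of these.

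Olfm1, a secreted glycoprotein of neurons, ranged from 7031 to 9543 in brain and from 6 to 39 in testis, a difference of -7.52. Gria2, a subunit of the AMPA-type glutamate receptor, ranged from 5148 to 7736 in brain and from 2 to 20 in testis. Rbfox1, a splicing regulator of neurons, ranged from 5055 to 7483 in brain and from 2 to 47 in testis. Vsnl1, a neuronal calcium sensor, differed by -7.60, Zic1, a transcription factor of the cerebellum and other regions, by -7.40, and the membrane glycoprotein Gpm6a by -7.19.

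The remaining leading brain genes were Nap1l5 (-7.45), Resp18 (-7.15), Pcp4 (-7.10), a calmodulin regulator of Purkinje and other neurons, the microtubule regulators Stmn3 (-6.95) and Stmn4 (-6.71), and the axonal adhesion protein Cntn1 (-6.75). In each of the 15 the male with the smallest difference still showed 6.33 or more. Mobp and Pcp4 were called for dependence on genotype (limma F test, adjusted p = 3.39e-02 and 4.05e-02), with genotype means spread over 1.00 and 1.23. Snap25 had a wider spread, 1.43, without a call. Without the musculus x castaneus F1 the calls of Mobp and Pcp4 were lost (limma adjusted p = 0.083 and 0.21), while their spreads were still 0.89 and 1.23.

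Synaptic genes were brain transcripts in most cases. Tested genes numbered 19 of 21 listed for vesicle release, 15 of 22 for receptors, 15 of 20 for ion channels, 14 of 20 for transmitter synthesis and transport, 24 of 28 for neuropeptides and all 20 for the neuronal cytoskeleton. Of the 19 genes of vesicle release, 16 were called in brain and all 16 held, with a list median of -4.76. Over all probe sets 26.3% were called in brain and 17.2% held. Syt1, the calcium sensor of release, ranged from 9229 to 13107 in brain and from 85 to 199 in testis. Snapin was shared, with medians of 1225.5 in brain and 1303 in testis, and Stx2, a syntaxin known from epithelia and spermatogenesis, was higher in testis (1.18 ± 0.06, limma adjusted p = 0.012). Of 15 tested glutamate and GABA receptor genes, 14 held in brain. The exception was a probe set of the NMDA receptor subunit Grin2b, which ranged from 241 to 1542 in testis and from 74 to 223 in brain (1.87).

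Of 15 tested neuronal ion channels 13 were called in brain, against 26.3% of all probe sets, with a median of -5.06. The sodium channel Scn2a ranged from 3996 to 6334 in brain and from 22 to 91 in testis. The potassium channel Kcnc1 was not called, at -0.37. Of 14 tested genes of transmitter synthesis and transport 11 were called in brain, and Dbh, which makes noradrenaline, and Chat, which makes acetylcholine, were not.

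Of 24 tested neuropeptides and their processing proteins, 19 were called in brain, against 26.3% of all probe sets. Cck ranged from 4470 to 7157 in brain and from 1 to 59 in testis (-6.93). Penk, the precursor of enkephalin, lay between 2163 and 4388 in testis and between 4857 and 7054 in brain, and at -0.79 was not called. Pcsk1, a protease that cuts peptide precursors, was higher in testis on average (1.79), but its testis signals ran from 103 to 2633 and overlapped the brain range of 112 to 253. Of 20 tested genes of the neuronal cytoskeleton 19 were called in brain, such as the neurofilament Nefl (-6.76), tau, Mapt (-4.83), and the axonal motor Kif5a (-7.08).

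Glial genes followed the same direction. Over all probe sets 26.3% were called in brain and 17.2% held. Of 15 tested genes of myelin and oligodendrocytes, of 19 listed, 11 held in brain, such as Cnp (-5.58) and Mog (-5.14), while Fa2h, a fatty acid hydroxylase of myelin lipids, had medians of 2908 in testis and 2090 in brain and was not called. Of 14 tested astrocyte genes, of 15 listed, 12 were called in brain, such as the water channel Aqp4 (-5.77) and the glutamate transporter Slc1a2 (-5.32). Gja1, a gap junction protein of astrocytes and Sertoli cells, differed by only -1.14. Of 15 tested genes of macrophages and microglia, of 16 listed, 8 were called in brain, against 26.3% of all probe sets. Examples were P2ry12 (-2.98) and Csf1r (-2.70). Aif1, a calcium-binding protein used as a microglial marker, went the other way, with signals from 4299 to 11965 (median 10028) in testis and from 202 to 352 (median 289) in brain, a difference of 4.84.

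**Figure D3:**
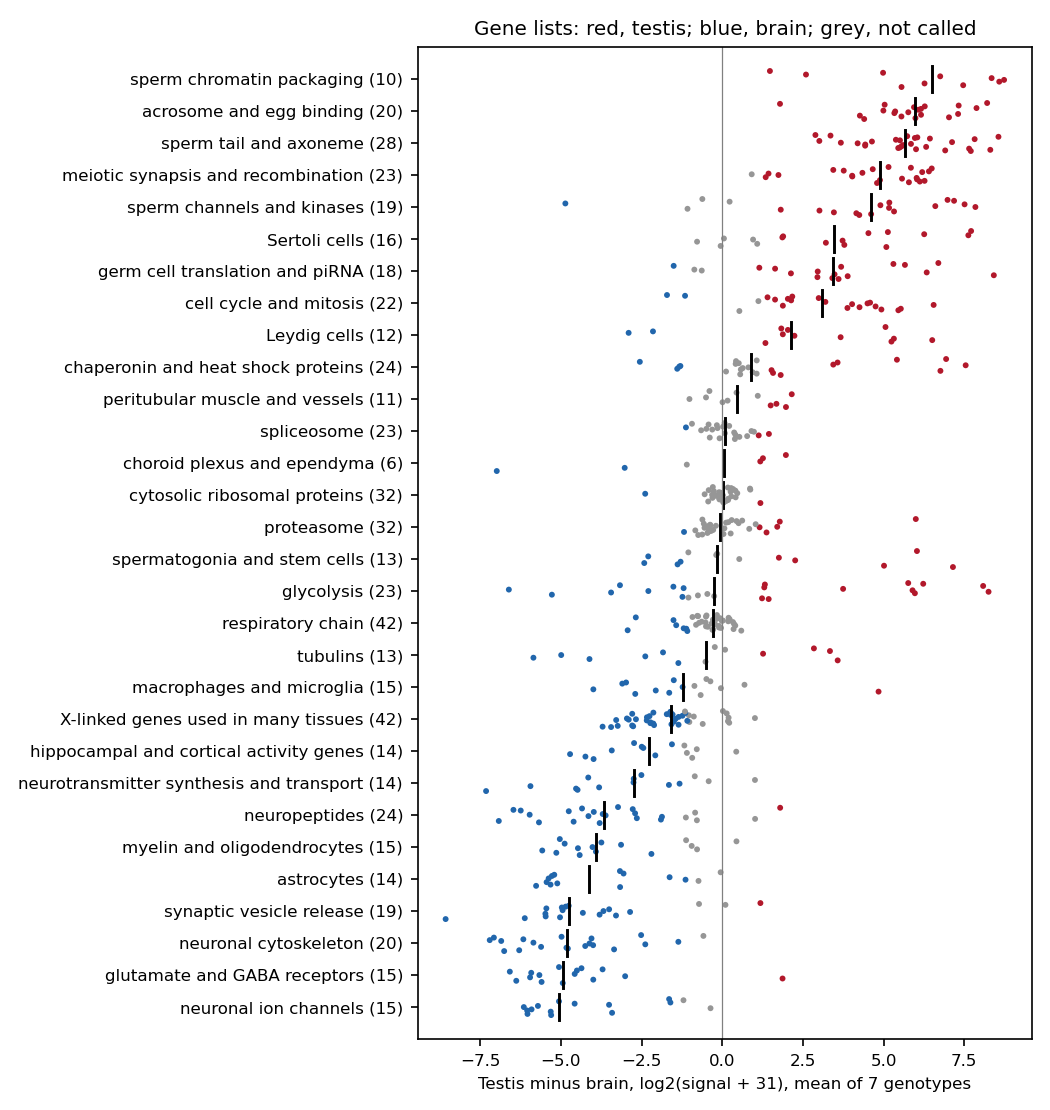
Testis minus brain on the log2(signal + 31) scale for the tested genes of each list, averaged over 7 genotypes; the number of tested genes is in brackets, bars are list medians, and colours give the call (red testis, blue brain, grey neither). Sperm lists lie to the right with medians from 4.61 to 6.51, neuronal lists to the left, and ribosomal, proteasome and respiratory chain genes around 0 apart from single members.

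Related genes divided between the tissues. Of 51 listed pairs of related genes, in which the second member is mostly known from the male germ line, 43 had both members tested. The second member was called in testis in 38 pairs and held in every male in 36. The first member was called in brain in 23 pairs, in testis in 9 and in neither in 11. Both directions together, the second in testis and the first in brain, were found in 21 pairs. The pairs were listed for this known division, so the counts describe it and do not test it.

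The pairs Pgk1 and Pgk2 and Pdha1 and Pdha2, of energy metabolism, lay farthest apart. Pgk1, the phosphoglycerate kinase on the X chromosome, ranged from 517 to 2125 (median 964) in testis and from 9252 to 14069 (median 11383.5) in brain, a difference of -3.45 ± 0.05 (limma adjusted p = 4.32e-15). Its intronless relative Pgk2 ranged from 7876 to 14196 (median 12269) in testis and from 1 to 21 (median 6.5) in brain, a difference of 8.25 ± 0.06 (limma adjusted p = 6.80e-19). The ranges of the tissues were apart for both genes, in opposite directions. Pdha1, the X-linked subunit of pyruvate dehydrogenase, differed by -3.71 and Pdha2 by 7.64. Among further pairs of energy metabolism, the mitochondrial ADP/ATP carriers Slc25a4 and Slc25a31 differed by -2.33 and 6.03. The cytochrome oxidase subunits Cox6b1 and Cox6b2 differed by -2.40 and 5.58, and Cox8a and Cox8c by -2.68 and 3.43.

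Other pairs came from signalling, chromosome structure and translation. The calcineurin regulatory subunits Ppp3r1 and Ppp3r2 differed by -3.25 and 7.56. The cohesin subunits Stag2 and Stag3 differed by -2.34 and 6.40, where Stag3 belongs to meiosis. The ribosomal protein Rpl39 was shared, with medians of 460.5 in testis and 434.5 in brain, while Rpl39l ranged from 11866 to 20063 in testis and from 4 to 90 in brain. The kinesins Kif2a and Kif2b (-0.25 and 7.81) and the transcription factor subunits Gtf2a1 and Gtf2a1l (-0.02 and 6.09) behaved alike, with a shared first member. The actin-capping proteins took all 3 positions: Capza2 was higher in brain (-2.39), Capza1 in testis (1.95) and Capza3 in testis by 7.06.

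Not all pairs divided. Cox4i1 and Cox4i2 differed by -0.29 and -0.33. Cstf2t, an autosomal copy of the polyadenylation factor Cstf2, had medians of 2708.5 in testis and 3554.5 in brain and was shared, while X-linked Cstf2 was higher in brain (-2.79). Of the catalytic subunits of protein kinase A, Prkacb was higher in brain (-4.24) and Prkaca was not called (-1.08, limma adjusted p = 0.15). Sequences related within a pair can share probes, so a small signal of one member in the other tissue cannot be assigned with certainty.

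**Figure D4:**
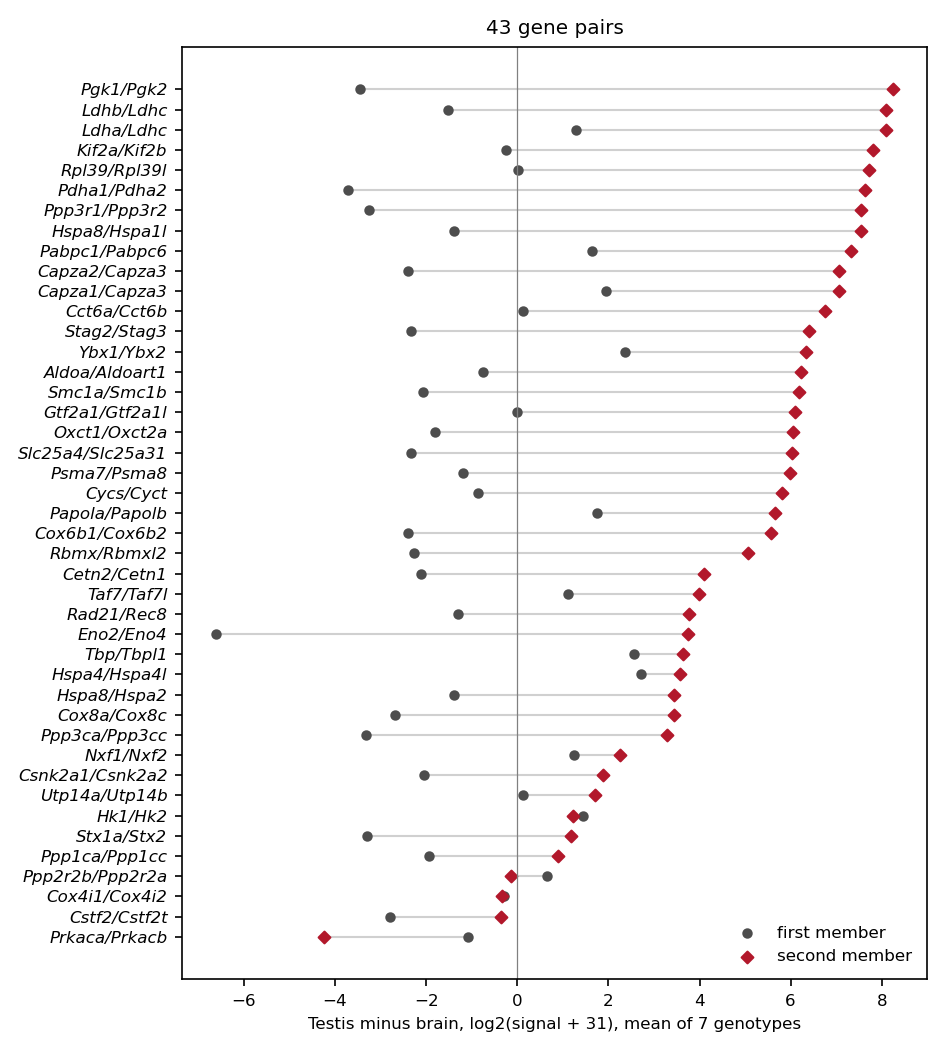
Testis minus brain on the log2(signal + 31) scale for 43 pairs of related genes, with the first member as a grey circle and the second as a red diamond. In 38 pairs the second member was called in testis, up to 8.25 in Pgk2, and the first members reach from -6.62 in Eno2 to 2.73 in Hspa4.

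The listed X-linked genes that many tissues use were mostly lower in testis than in brain. The list was chosen with earlier results of these data known, so its counts describe it and do not test X linkage. Of 50 listed, 42 were tested, 31 were called in brain and none in testis, against 26.3% and 18.9% of all probe sets, and the list median was -1.60. Hprt, the purine salvage enzyme, ranged from 462 to 997 (median 563.5) in testis and from 3782 to 5087 (median 4267) in brain, a difference of -2.76. Atrx, a chromatin remodeller, differed by -3.24 and Ogt, which attaches N-acetylglucosamine to proteins, by -2.79. Timm17b, Psmd10, Hmgb3, Utp14a and Ube2a were shared, and Lamp2, a lysosomal membrane protein, was at 1.01 and not called. Rps4x, an X-linked gene of the ribosomal list, ranged from 1069 to 3437 in testis and from 6496 to 9289 in brain (-2.39).

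The X-linked genes varied with genotype through the musculus x castaneus F1. The median of the 42 genes lay between -1.54 and -1.95 in the other 6 genotypes and at -0.87 in this F1, with -0.95 and -0.77 in its 2 males. Its difference was the highest of the 7 genotypes in 37 of the 42 genes, against 37.9% of all tested probe sets. Dependence on genotype was called for 28 of the 42 genes, where 27.4% of all tested probe sets were called, and for 1 of 42 without this F1, where 6.65% were. Without it 27 of the 42 held in every remaining male, against 17 with it.

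For Ogt and Ddx3x the testis arrays carried this shift. Ogt had testis signals of 1166 and 1225 in the musculus x castaneus F1 and from 449 to 763 in the other 12 males, and brain signals of 4657 and 4472 against 3969 to 5105. Ddx3x, an RNA helicase, had testis signals of 2812 and 2969 against 910 to 1646, and brain signals of 6052 and 5521 against 5568 to 7156. The testis values of this F1 lay above all others for both genes, while its brain values lay within or close to the range of the rest.

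Lists other than the X-linked one moved in the same males, both of cell types and of general machinery. The median of the acrosome list was 4.90 in the musculus x castaneus F1 and 5.99 to 6.32 in the other genotypes, and that of the tail list 4.98 against 5.66 to 6.07. This F1 was lowest of the 7 in 19 of 20 acrosome genes and 24 of 28 tail genes, against 17.7% of all probe sets. The Sertoli list had a median of 4.31 in it and 2.96 to 3.46 elsewhere, and it was highest of the 7 in 12 of 16 Sertoli genes. It was also highest in 17 of 23 spliceosome genes and 18 of 32 proteasome genes, against 37.9% of all probe sets. Rhox5, an X-linked homeobox gene of Sertoli cells, had testis signals of 2191 and 3419 in this F1 and of 752 to 1521 in the other males. The summed signal of the tail list ran from 140764 to 270252 over the testis arrays and that of the Sertoli list from 48905 to 86946. The part of cell composition in the shift of X-linked genes was not tested.

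**Figure D5:**
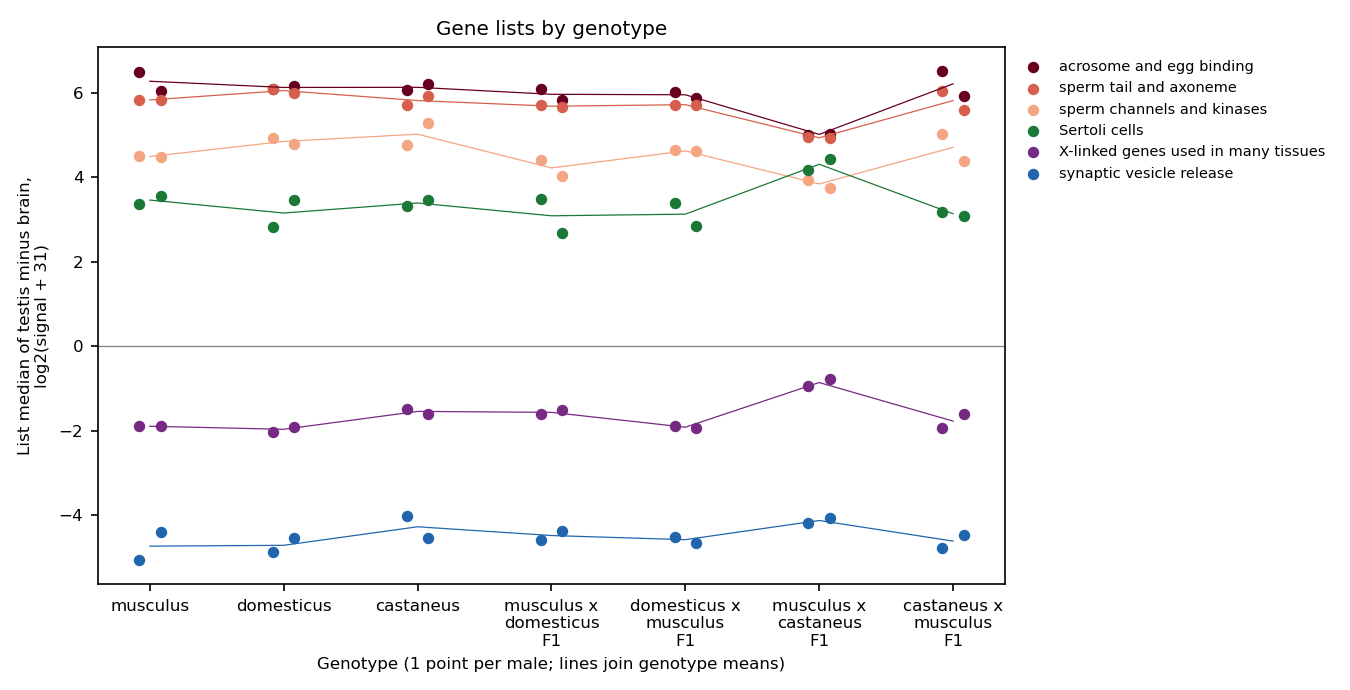
List medians of testis minus brain on the log2(signal + 31) scale by genotype, with 1 point per male and lines through the genotype means. In the musculus x castaneus F1 the acrosome, tail and sperm channel lists are lower and the Sertoli and X-linked lists higher than in the other 6 genotypes.

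Shared transcripts were those bright in both tissues with a difference near 0 in every male. Only 13036 of the tested probe sets were bright enough in both tissues to enter the class. Of all tested probe sets 2853 (10.6%) qualified, covering 2111 named genes, with a 90% interval within 0.5 log2 units and all 14 males within 1. They had median signals of 754 in testis, 759 in brain and 777 in liver. Eef1a1, which delivers transfer RNA to the ribosome, ranged from 14673 to 23804 in testis and from 13337 to 18417 in brain, a difference of 0.16 with a 90% interval of 0.09 to 0.23. Rps28 differed by 0.27, Tpt1 by 0.14, the dynein light chain Dynll1 by 0.36, and Actg1, a cytoplasmic actin, by 0.29. The chaperone Hsp90aa1, at 0.41 with an interval of 0.34 to 0.48, lay closest to the limit of the 10 brightest.

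Tmsb10, an actin-binding peptide, ranged from 9840 to 20369 in testis, from 9853 to 14468 in brain and from 1561 to 3166 in liver. The cytochrome oxidase subunits Cox7a2 (0.19), Cox5a (0.23) and Cox6c (-0.07) were shared too, and their liver signals were higher than either tissue. The selection of shared transcripts depends on the scaling: 1846 of the 2853 stayed in the class when arrays were scaled to a shared median and 2207 after quantile normalization.

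Basic machines of the cell supplied many shared transcripts, with exceptions. Over all probe sets 10.6% were shared, or 2853 of the 13036 bright enough in both tissues. Of 32 tested cytosolic ribosomal proteins, of 58 listed, 26 were shared, with a median of 0.03 that became 0.31 with shared array medians and -0.16 after quantile normalization. Rplp0, a protein of the ribosomal stalk, was called in testis (1.18), as Rps4x was in brain. Of 42 tested respiratory chain genes, of 44 listed, 23 were shared. In brain 7 were called, against 26.3% of all probe sets, with Ndufa4 (-2.93) and Cox8a (-2.68) farthest. None was called in testis, against 18.9% of all probe sets. The list median was -0.29 against -0.26 over all probe sets.

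All 32 listed proteasome genes were tested. Of these 12 were shared, against 10.6% of all probe sets and 2853 of the 13036 bright enough in both tissues. In testis 5 were called and in brain 1, against 18.9% and 26.3% of all probe sets. Psma8, a germ cell subunit of the core particle, ranged from 3742 to 7151 in testis and from 26 to 82 in brain, and Psma7, the subunit it resembles, was called in brain (-1.19). Psmd8 (1.78) and Psmc3 (1.70), subunits of the regulatory particle, held in testis, and Psma6 (1.37) and Psmc2 (1.15) were called. Of 23 tested spliceosome genes, of 26 listed, 9 were shared, 2 were called in testis and 1 in brain.

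Of 24 tested chaperones, of 25 listed, 11 were called in neither tissue. Of the 24, 3 were shared, against 10.6% of all probe sets and 2853 of the 13036 bright enough in both tissues. In testis 9 were called, against 18.9%, such as the chaperonin subunits Tcp1 (1.81) and Cct4 (1.57) and the germ cell member Cct6b (6.76), and in brain 4, against 26.3%, such as Hsph1 (-2.56) and Hspd1 (-1.33). Of 23 tested glycolysis genes, of 26 listed, 11 were called in testis, 8 in brain and 4 in neither, and 1 was shared. The muscle-type mutase Pgam2 ranged from 8959 to 14769 in testis and from 84 to 249 in brain (5.89), while Pgam1 was higher in brain (-2.29). The glucose transporter Slc2a3 was higher in testis (1.32) and Slc2a1 in brain (-3.17). Among 13 tested tubulins, of 18 listed, 4 were called in testis, such as Tuba8 (3.57), and 6 in brain, such as Tubb2b (-5.85).

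A small set was shared by testis and brain and lower in liver. Of the shared probe sets 167 (5.85%) lay above liver by more than 1 in every male, where 15.2% of all tested probe sets met that rule. Pfn2, an actin regulator known from neurons, ranged from 6950 to 9697 in testis, 9613 to 12917 in brain and 154 to 357 in liver, an excess over liver of 5.20 ± 0.05 (limma adjusted p = 4.21e-25). Its testis and brain ranges overlapped slightly, and liver stayed apart. Atl1, a GTPase that shapes the endoplasmic reticulum, ranged from 3475 to 5060 in testis, 4576 to 6209 in brain and 123 to 215 in liver. Reep1, which acts in the same organelle, exceeded liver by 3.82. Its testis minus brain difference was 0.49 and 0.53 in the musculus x castaneus F1 males and -0.64 to -0.29 in the others. Without that F1 Reep1 left the shared class.

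Sptbn4, a spectrin of the axon initial segment, had medians of 1531.5 in testis, 1556 in brain and 26 in liver. Lrrc49 had medians of 604, 562.5 and 1. Abhd8 (4.50), Arhgap20 (4.03) and the platelet-type phosphofructokinase Pfkp (3.96) exceeded liver in every male as well. Acsl6, an acyl-CoA synthetase of brain and testis, had medians of 2518, 2979 and 81, but its other probe set differed by -3.50 between testis and brain. Epb41l3, a membrane skeleton protein, was shared by 1 probe set (-0.05) and differed by -2.32 in the other.

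Some genes were testis transcripts by 1 probe set and brain transcripts by another. Of 5350 genes with more than 1 tested probe set, 118 (2.21%) held in opposite directions, and 178 did so without the musculus x castaneus F1. Chl1, an adhesion molecule of neurons, ranged from 2361 to 9325 (median 8473) in testis and 160 to 309 in brain by 1 probe set, a difference of 4.82. By the other it ranged from 34 to 79 in testis and 4080 to 6321 in brain, a difference of -5.91. Each probe set thus kept its tissue in all 14 males. Which transcript forms the probe sets read was not examined here.

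Samd4, a regulator of messenger RNA translation, gave 6.04 and -3.19, and Fem1b, part of a ubiquitin ligase, 5.27 and -3.09. Clmn, a calponin-like membrane protein, gave 4.40 and -4.26, Mfap3l 4.68 and -3.45, and Chn2, a GTPase-activating protein, 3.56 and -4.96. The ubiquitin ligase Trim37 gave 3.43 and -2.89 and Nol4 4.16 and -3.04. In Fem1b the testis probe set ranged from 3930 to 8462 in testis and 100 to 188 in brain, and the brain probe set from 431 to 754 and 4294 to 5243.

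The size of the tissue difference depended on genotype for 7395 probe sets (27.4%; limma F test over 7 genotypes, adjusted p under 0.05). Without the musculus x castaneus F1 the count was 1796 of the same probe sets (6.65%), while leaving out any other genotype gave 6109 to 8253. Without 1 male of that F1 it was 3380 (male 2) or 4632 (male 1), and without the male as a block 4685. Among the testis transcripts that held 38.8% were called for dependence, among the brain transcripts 29.4% and among the shared ones 20.6%. For the same probe sets without that F1 the shares were 8.35%, 6.81% and 3.47%. Tested alone against 0, brain exceeded testis in the musculus x castaneus F1 for 9633 probe sets (35.6%). The shares were 42.9% in castaneus, 44.5% in domesticus, 45.5% in musculus, 45.2% and 45.8% in the F1 of musculus and domesticus and 45.4% in the castaneus x musculus F1.

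A change of direction between genotypes was rare. In 37 probe sets (0.137%) both males of 1 genotype were above 1 and both of another below -1. Nans, an enzyme of sialic acid synthesis, had testis signals of 3300 and 3298 in castaneus and of 286 and 282 in musculus, with brain signals of 824 and 881 in castaneus and 793 and 920 in musculus. Testis was thus above brain in castaneus and below it in musculus. The F1 of these 2 had testis signals between 1478 and 2296. Scarb2, a lysosomal membrane protein, had testis signals of 2467 and 2656 in musculus, 105 and 153 in domesticus and 162 and 120 in castaneus, while all 14 brain signals lay between 632 and 1029. Probe sets can also read subspecies differently where the sequence differs from the array's, and the part of this was not tested.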

How the data were processed

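Each probe set has 1 deposited intensity per array, on a linear scale. The authors used MAS5, per the submitters' processing notes, and for its version and for detection calls the sources used here give nothing. Means trimmed by 2% lay between 497 and 499 on all 42 arrays, which shows scaling to a common level before deposit. MAS5 summarises each probe set on its own, and sequence differences from the probes can lower a signal. The number of arrays limits the precision.

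The platform annotation gave 34945 of the 45037 probe sets 1 symbol, 932 of them several and 9160 none, and only those with 1 symbol were used to name genes. Groups and pairing come from the labels (genotype and replicate number). Deviations of the testis and brain array of the same male from their group means correlated at 0.180 to 0.394 in all 7 genotypes, and the male was a block in the fit.

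An offset of 31, which 20% of all values do not exceed, was added before taking log2. Probe sets in the lowest 40% by mean over the 28 arrays were dropped, leaving 27022. limma 3.58.1 in R 4.3.3 fitted a testis effect for each genotype with the male as a block (7 residual degrees of freedom). The average of the 7 effects was tested with treat against a log2 change of 1, with Benjamini-Hochberg adjustment over all tested probe sets and an adjusted p under 0.05. Dependence on genotype was tested with the moderated F test. Shared transcripts had a mean in the upper 40% of all probe sets in each tissue, a 90% interval within 0.5 and all 14 males within 1. The excess over liver is the mean of testis and brain minus liver, from a fit of 42 arrays. The pipeline was tested on simulated data. In a list, a gene is represented by its brightest probe set over the 28 arrays, so Ldhc, Gria2 and Mobp have other values there than among the leading genes.

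Probe sets with the suffix _x_at were left out of the ranked selections but not of the lists, pairs and markers. Named genes had 1 symbol. They are the 15 per direction with the largest smallest difference over the males, the 10 brightest shared genes, the 10 shared genes with the largest smallest excess over liver, the 8 genes with the strongest opposite probe sets, the 10 with the widest genotype range among those of changing direction, and members of lists and pairs. The members, lists and pairs were chosen with earlier results of these data known. Alternatives were another offset (1 or 100), no filter, quantile normalization, scaling to a shared median, no block, other call rules, each male left out and, added after seeing the data, each genotype left out. No positions or sequences were used.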

Additional observations from a re-analysis of the deposited data

Results flagged for a closer look

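The genes below changed direction between genotypes: both males of 1 genotype had testis above brain by more than 1 log2 unit and both of another had brain above testis, with a call of dependence on genotype (limma F test, adjusted p from 1.54e-07 to 7.03e-03 over the 10 genes). Values are testis minus brain on the log2(signal + 31) scale, and the range is that between the highest and the lowest of the 7 genotype means.

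Capn3, a muscle protease, had the widest range, 5.47, from -2.11 in domesticus to 3.36 in castaneus. Its castaneus testis signals were 2046 and 1123 against 8 to 354 in the other 12 males, and brain signals lay between 117 and 253. Galntl6, a glycosyltransferase, had a range of 4.67, with 2.92 in domesticus and 2.79 and 2.61 in both F1 of domesticus and musculus, but -1.75 in castaneus. Its testis signals in those 3 genotypes lay between 1117 and 1321 and in the others between 11 and 104. Fam20a, a pseudokinase of enamel formation, had a range of 3.96 and was positive in the same 3 genotypes.

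Scarb2 had a range of 3.93, from -2.43 in domesticus to 1.50 in musculus, and its other tested probe set differed by -2.65 on average. Nans had a range of 3.41, from -1.49 in musculus to 1.91 in castaneus, with the F1 of these at 0.97 and 1.29. Nfatc1, a transcription factor, had a range of 3.71, with 2.12 in castaneus.

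Zfp354b, a zinc finger gene, had a range of 3.48, from -1.60 in musculus to 1.89 in castaneus, with brain signals of 247 and 240 in musculus and 110 and 86 in castaneus. Pvt1, a noncoding transcript, had a range of 3.49, from -1.56 in musculus to 1.92 in the musculus x domesticus F1, with brain signals of 212 and 181 in musculus and 36 and 89 in that F1. Stxbp4 had a range of 3.63: musculus brain signals were 8 and 47 and domesticus ones 416 and 495, with testis signals from 84 to 217 in all males. Mpeg1, a macrophage gene, had a range of 3.91, from -2.26 in castaneus to 1.64 in the musculus x castaneus F1, with testis signals up to 640 and brain signals up to 401. In no other genotype did both males lie above 1, so its change of direction rested on that F1. Without that F1 the range of Mpeg1 was 3.10. Causes of these changes were not tested.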

How the results depend on the processing

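All 30 named testis and brain genes kept their direction and call under each alternative in which single genes were followed. These were both offsets, no filter, both scalings, no block, each male left out and the musculus x castaneus F1 left out. For the other genotypes left out and the other call rules only counts were made. Brain had more calls than testis in every setting except shared array medians (5986 in testis and 5852 in brain). With the male not used as a block (no replicate block), dependence on genotype was called for 4685 probe sets, of which 4536 were called with it; 3760 testis and 4658 brain transcripts held in both fits. Dependence was called for 1817 when the musculus x castaneus F1 was left out and the filter renewed, and for 3380 (without its male 2), 4632 (without its male 1) and up to 7577 when single males were left out. Without that F1, 178 genes had opposite probe sets. Tested against 0 rather than 1, 9950 probe sets were higher in testis and 14236 in brain. Calls in each genotype contrast were 6244 and 8244, and differences beyond 2 in every male 2155 and 2206. Counted as genes, the brain transcripts numbered 3018. Of the named shared genes, 11 left the class with shared array medians and Pfn2, Atl1, Acsl6, Reep1 and Pfkp after quantile normalization. Hsp90aa1 left it without the block and without musculus male 1, musculus x domesticus F1 male 2, castaneus male 1, musculus x castaneus F1 male 2 or castaneus x musculus F1 male 2, and Reep1 without the musculus x castaneus F1. Of 34 list medians, 18 moved by more than the SD between males with an offset of 100, 14 with an offset of 1, 12 with shared array medians and 6 after quantile normalization. The acrosome median was 7.08 with an offset of 1 and 4.76 with 100, and the Sertoli median 4.28 and 2.48. Medians of the ribosomal (0.03), proteasome (-0.08), spliceosome (0.07), glycolysis (-0.25) and spermatogonia (-0.16) lists changed sign under a scaling. With 2 males per genotype, single genotype effects rest on few arrays.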

Other observations

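Of 14 tested activity genes, which neurons switch on within minutes of firing, 9 were higher in brain and 5 of these in every male. Over all probe sets the shares were 26.3% and 17.2%. Fos ranged from 447 to 5487 (median 3343) in brain and from 97 to 249 in testis, and Egr3 from 2759 to 4604 in brain and from 58 to 168 in testis. Arc, a synaptic gene of the same group, overlapped fully, from 207 to 2604 in brain and from 730 to 2534 in testis, and was not called (0.43). The wide brain ranges of Fos and Npas4 (70 to 927) are between males.

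Of 11 tested genes of peritubular muscle and vessels, 4 were higher in testis, 3 of them in every male, none in brain and 7 in neither, where 18.9% and 26.3% of all probe sets were called in testis and in brain. Acta2, the actin of smooth muscle, ranged from 2316 to 5152 in testis and from 612 to 904 in brain (1.97), and the collagen Col3a1 differed by 2.15. Markers of vessel lining were not called, with Cdh5 at 0.16 and Kdr at -0.51. Of 6 tested genes of choroid plexus and ependyma 3 were called in testis, none of them in every male, and 2 in brain, with a list median of 0.04. Without the musculus x castaneus F1, 1 was called in testis and 3 in brain. The carrier Ttr (-6.99) and Sostdc1 (-3.03) were higher in brain, while the folate receptor Folr1 (1.18) and Steap1 (1.26) were called in testis. Foxj1, which turns on genes of motile cilia in ependyma and spermatids alike, ranged from 204 to 958 in testis and from 72 to 239 in brain (1.97). Klk1b24, a kallikrein of Leydig cells, ran from 64 to 3710 over the testis arrays, against 42 to 117 in brain.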
